A study of Drosophila melanogaster with 59 samples.

Results

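Long RNA from adult male heads was compared between Red* and White*, a pair of Drosophila melanogaster lines that carry the same Fab2L transgene and differ in eye colour. The genes described are those with an FPKM (fragments per kilobase of transcript scaled to library size) above 1 in at least 2 of the 4 libraries, 2 Red* and 2 White*. This rule kept 10777 of the 17558 genes listed. Just inside it, 160 genes had a second-highest value of at most 1.1, and just outside it, 163 genes had one of at least 0.9.

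Fab2L holds Fab-7, a regulatory element of the homeotic Bithorax cluster, next to a mini-white gene whose product pumps eye pigment precursors into pigment granules. Fab-7 can recruit Polycomb group proteins, which deposit and read a repressive mark on histone H3, or trithorax group proteins, which act against them. A fly with much active mini-white has red eyes, and one in which it is repressed has pale eyes. Lines kept for either state have been called epilines, since the state is passed on while the transgene stays the same.

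Red*, White* and unselected Fab2L flies had the genotype w[1118] plus the transgenic Fab2L insertion, in the Oregon-R background, and the fourth group was w[1118] in Oregon-R without the transgene. All heads came from males 4 days old, with 2 libraries per group. RNA longer than 200 nt was sequenced as single-end reads after removal of ribosomal RNA and without selection for polyA tails, so RNAs with no tail were kept. The transgene and the w[1118] allele are shared by Red*, White* and Fab2L, and each selected line is 1 line, so a difference between them is one between 2 lines. The labels do not say whether replicates came from separate cultures, so p-values measure the spread between libraries, which may be technical.

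The Red* libraries held 25.2 and 36.6 M reads in genes (M, 1e6), and the White* libraries 16.05 and 13.8 M, so depth and line cannot be told apart. Photoreceptor, neuron and glia markers were present in all 4 libraries, ninaE (the main rhodopsin) at 7379 and 8587 FPKM in Red* and at 10054 and 11021 in White*. The X-linked RNA lncRNA:roX1, which marks male cells, stood at 916 and 831 FPKM in Red* and at 752 and 741 in White*. Traces of other tissue differed by library. The gut trypsin alphaTry was at 19.9 FPKM in Red* replicate 1, at 0.426 in Red* replicate 2, and at 0 and 0.243 in White*. The gut markers betaTry and Jon25Bi were also highest in Red* replicate 1. The gut marker Amy-p was not, at 8.82 and 1.40 FPKM in Red* and at 10.5 and 8.94 in White*. The female yolk protein Yp3 was at 4.34 and 6.04 FPKM in Red* and at 13.7 and 13.3 in White*, a difference that did not pass the test (adjusted p = 0.506).

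Each gene was tested with limma on log2(FPKM + 1), and a gene was called at a Benjamini-Hochberg adjusted p below 0.05 over all 11119 genes in the fit. Of the members, 94 were higher and 336 were lower in Red* than in White*. Against all genes tested these were 0.845% higher and 3.02% lower. At an unadjusted p below 0.05, 1023 of the 10777 members were higher and 1535 were lower, which stands beside every unadjusted count below. The median change of the called genes was 0.69 upward and -0.68 downward on the log2 scale, and 20 and 64 of them passed 1 log2 unit. When the 20 most abundant RNAs were taken out before scaling, the split became 154 higher and 204 lower. The counts rest on few libraries. Without Red* replicate 1 they were 6 and 19, without White* replicate 1 they were 6 and 16, without White* replicate 2 they were 7 and 19, and without Red* replicate 2 they were 120 and 457. In bulk heads, fewer cells of a type and less RNA per cell cannot be told apart.

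**Figure D1:**
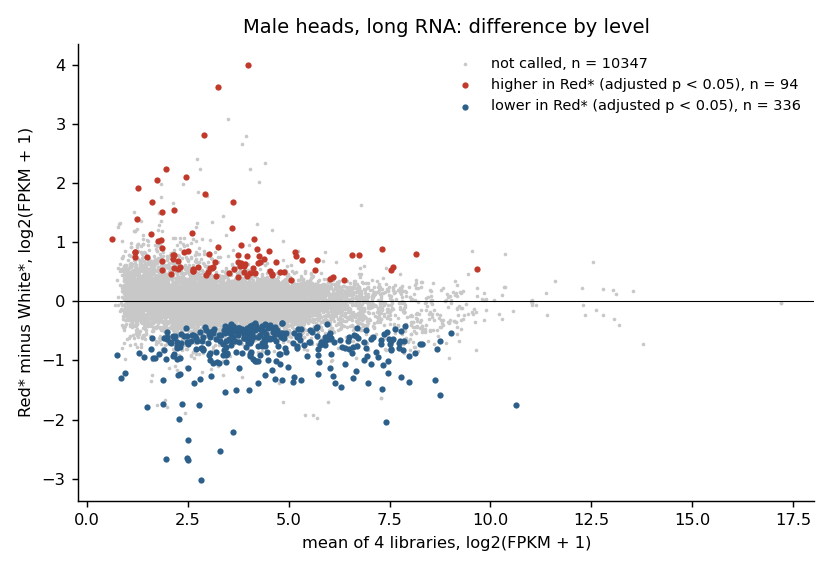
Difference between Red* and White* (y axis, log2(FPKM + 1)) against the mean of the 4 libraries (x axis, same scale); each point is 1 member gene. The 94 red points are called higher and the 336 blue points lower; called points of both colours occur at low and at high levels.

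A set of 16 genes stayed called with each of the 4 libraries left out in turn. One was w, the reporter and the check of the labels, at 9.83 and 11.7 FPKM in Red* and 2.36 and 2.28 in White* (log2 difference 1.82, SE 0.11, adjusted p = 0.000863). Fab2L flies lay between them with a mean of 5.75 FPKM. GstO2, an omega-class glutathione transferase, was at 17.1 and 18.3 FPKM in Red* and 8.88 and 8.43 in White*. CG40298 was at 4.20 and 4.58 FPKM in Red* and 0.937 and 0.840 in White*. These 3 were the higher genes in the set. In each the groups did not overlap, which the choice of the set makes likely.

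The other 13 genes of the set were lower in Red*. CG33346 was at 0.105 and 0.0239 FPKM in Red* and at 5.79 and 5.72 in White*, and its Fab2L mean was 0.0971, so White* is the line that stands apart. Crys, which encodes a crystallin of the corneal lens, was at 38.9 and 38.1 FPKM in Red* and 103 and 101 in White* (log2 difference -1.38, SE 0.10, adjusted p = 0.00219). Swim was at 30.1 and 30.8 FPKM in Red* and 68.3 and 77.5 in White*. In these 3 genes, too, every White* library was above every Red* library, which the choice of the set makes likely. Cpr73D, a cuticle protein gene, was at 5.26 and 5.38 FPKM in Red* and 11.8 and 12.3 in White*.

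**Figure D2:**
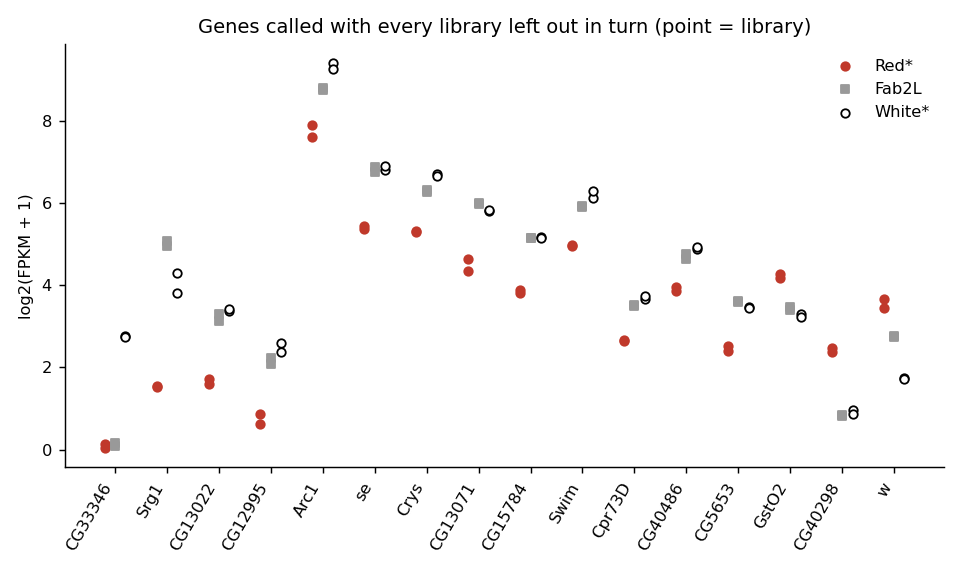
Level of the 16 genes called with every library left out in turn (y axis, log2(FPKM + 1)); each point is 1 library, red for Red*, grey for Fab2L and white for White*. For w, Fab2L lies between the lines, and for CG33346 only White* is above 1 FPKM.

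Ribosomal protein genes held more lower calls than any other list. Of 77 cytosolic ribosomal protein genes among the members, 23 (29.9%) were lower in Red*, against 3.02% of all genes tested. In this list none was higher, and 71 had a difference below 0, against 5348 of all 10777 members. Their median was -0.55 on the log2 scale against 0.00 over all members. RpL8, a large-subunit protein, was at 68.6 and 99.3 FPKM in Red* and at 221 and 246 in White* (log2 difference -1.48, SE 0.21, adjusted p = 0.0189). The groups did not overlap, as is likely in a called gene, and Red* replicate 1 was the lowest library. Without Red* replicate 1 only 1 of the 77 was called, without either White* library none was, and without Red* replicate 2 the number was 49. Summed over the list, the level was 18797 and 23513 FPKM in Red* and 26332 and 29582 in White*, and 26773 in Fab2L.

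Genes of energy metabolism were also among the lower calls. Of 74 nuclear genes of oxidative phosphorylation 12 were lower and 1 was higher, with a median of -0.32. UQCR-C2, a core subunit of complex III, was at 53.6 and 69.3 FPKM in Red* and 128 and 150 in White* (log2 difference -1.17, adjusted p = 0.0282 by limma). SdhB, the iron-sulphur subunit of complex II, was at 30.9 and 38.1 FPKM in Red* and 68.0 and 73.9 in White*. The exception was ND-AGGG of complex I, at 124.6 and 142 FPKM in Red* and 75.0 and 79.8 in White*. Of the 74, 0 were called lower once Red* replicate 1 or either White* library was left out, and 25 were without Red* replicate 2. Of 70 mitochondrial ribosomal proteins 4 (5.71%) were lower, and of 36 proteasome subunits 2 (5.56%) were, against 3.02% of all genes tested. Both counts were 0 without Red* replicate 1 or either White* library, and they were 7 and 9 without Red* replicate 2. The 14 RNAs of the mitochondrial genome had a median of 0.34, with 12 above 0. In the limma fit used for the calls none passed, and 4 were higher at an unadjusted p below 0.05. Both edgeR and DESeq2 called 2 higher. So did limma with a filter at FPKM 5, with the replicate number as a block, or with the 20 most abundant RNAs removed.

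Several smaller families held many lower calls; they were picked after the values were seen, so their counts describe and test nothing. All 7 CCT genes found, which encode subunits of the chaperonin that folds actin and tubulin, were called lower, among them CCT3 at 8.91 and 9.39 FPKM in Red* and 17.7 and 17.7 in White*. The tubulin gene alphaTub84B was at 213 and 260 FPKM in Red* and 376 and 402 in White*. The 3 annexins, calcium-dependent membrane binding proteins, were all called lower as well, AnxB10 at 35.9 and 43.6 FPKM in Red* and 83.2 and 92.2 in White*. In the pentose phosphate pathway 4 of 6 genes were, including Zw, the glucose-6-phosphate dehydrogenase, at 2.57 and 2.77 FPKM in Red* and 5.42 and 5.07 in White*. In all 3 families 0 genes were called without Red* replicate 1 or without either White* library.

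In the eye, some pigment synthesis genes were lower in the red-eyed line. Of 11 genes of pteridine (red pigment) synthesis 4 (36.4%) were lower and none higher, with a median of -0.41. Of all genes tested 3.02% were lower. Of 3 genes of ommochrome (brown pigment) synthesis 0 passed in the limma fit used for the calls, with 2 at an unadjusted p below 0.05. Limma with a filter at FPKM 5, edgeR and DESeq2 each called 1 lower. Pu, the GTP cyclohydrolase that starts pteridine synthesis, was at 130 and 136 FPKM in Red* and 184 and 208 in White*. The dehydratase gene Pcd was at 18.7 and 22.1 FPKM in Red* and 27.6 and 32.2 in White*. Its Fab2L mean was 21.5 FPKM, near Red*, and it lies in the stretches of White* variants described below. Beside w, its partner in pteridine transport, bw, was lower, at 6.19 and 7.399 FPKM in Red* against 12.6 and 14.4. Of the 11 pteridine genes 1 was called lower without Red* replicate 1 or either White* library, and 6 were without Red* replicate 2.

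Retinal determination genes, transcription factors that specify the eye, went the other way, with 4 of 15 (26.7%) higher and none lower (median 0.13). Of all genes tested 0.845% were higher. The Pax6 gene ey was at 17.5 and 16.6 FPKM in Red* and 12.99 and 11.8 in White*, and its paralog toy at 74.9 and 71.2 against 55.7 and 56.0. The homeobox gene hth was at 20.9 and 18.6 FPKM in Red* and 13.8 and 13.9 in White*. The groups did not overlap in these 3 genes, as is likely in called genes. Both ey and toy lie on chromosome 4, where 96 of 101 members had a difference above 0. None of the 4 stayed called without Red* replicate 1 or without either White* library, and 2 did without Red* replicate 2.

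No gene of the Polycomb and trithorax machinery was called by limma in the fit of all 8 head libraries. The counts were 0 of 8 genes of Polycomb repressive complex 2, which writes the mark, 0 of 12 genes of complex 1 and its deubiquitinase, 0 of 9 recruiters, and 0 of 21 trithorax group genes. Their medians were 0.05, 0.02, 0.08 and 0.00 on the log2 scale, and at an unadjusted p below 0.05 these lists held 0, 1, 2 and 3 genes. At that cutoff 1023 of all 10777 members were higher and 1535 were lower. Both edgeR and DESeq2 on whole reads called 1 lower gene of complex 1 and its deubiquitinase, and so did limma with a filter at FPKM 5. In the trithorax group 1 gene was called higher by DESeq2 and by limma without Red* replicate 2. A missed threshold does not show that the lines are alike.

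Among neural genes, the neuronal markers had a median of 0.29, and 17 of 19 had a difference above 0, but 1 was called: Rdl, a GABA receptor subunit, at 51.6 and 37.6 FPKM in Red* and 25.7 and 22.9 in White*. Rdl was not called without Red* replicate 1 or either White* library, and DESeq2 called 7 of the 19 higher. Genes induced by activity or injury fell in 5 of 13 cases, in 1 without Red* replicate 1 or White* replicate 1, and in 3 without either of the others. Mmp1, a matrix metalloproteinase, was at 6.53 and 5.70 FPKM in Red* and 15.2 and 12.03 in White*, and Jra, the Jun homologue, at 20.5 and 20.3 against 27.9 and 28.0. In the JAK/STAT pathway, a list also picked after the values were seen, the receptor gene dome and the feedback inhibitor Socs36E were lower, the second at 15.2 and 14.2 FPKM in Red* and 29.6 and 25.4 in White*, while the transcription factor Stat92E was at 83.6 and 85.2 against 86.2 and 82.7. No gene of that list was called without Red* replicate 1 or either White* library.

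Some immune genes were lower in Red* and others differed widely between replicates. Of all genes tested 3.02% were lower, and outside the Sting pathway the immune lists held few lower calls. None of 18 bomanin and baramicin genes was called by limma with all libraries in the fit. In the Sting pathway, an antiviral response, 2 of 5 genes were lower, and Srg1 was at 1.91 and 1.88 FPKM in Red* and 18.7 and 13.1 in White*. Without either White* library 1 of them was called, and without Red* replicate 2 the list held 3. Of 14 recognition proteins and lysozymes 2 were lower, PGRP-SA, a receptor for bacterial peptidoglycan, at 4.34 and 4.53 FPKM in Red* and 16.3 and 13.4 in White*. Of 17 genes of Toll and Imd signalling 1 was lower, the NF-kappaB factor Rel. Neither of these lists held a lower call without Red* replicate 1 or either White* library. None of 16 antimicrobial peptide genes was called by limma, edgeR or DESeq2 with all libraries in the fit, and at an unadjusted p below 0.05 limma gave 1 higher and 1 lower. DptA, a diptericin, was at 192 and 6.23 FPKM in Red* and at 77.5 and 6.18 in White*, so replicate 1 was far above replicate 2 in both lines. Of 18 heat shock genes 17 had a difference below 0 (median -0.71), but 1 was called, the constitutive Hsc70-4, and it was not called with any 1 of the 4 libraries left out. The inducible Hsp70Ba was at 28.5 and 8.69 FPKM in Red* and at 51.5 and 76.5 in White*, with an adjusted p of 0.135 by limma. Hsp70Bbb, of the same family, followed it at 34.2 and 10.4 FPKM in Red* and 62.7 and 97.1 in White*. The 17 differences are therefore not all independent of each other.

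**Figure D3:**
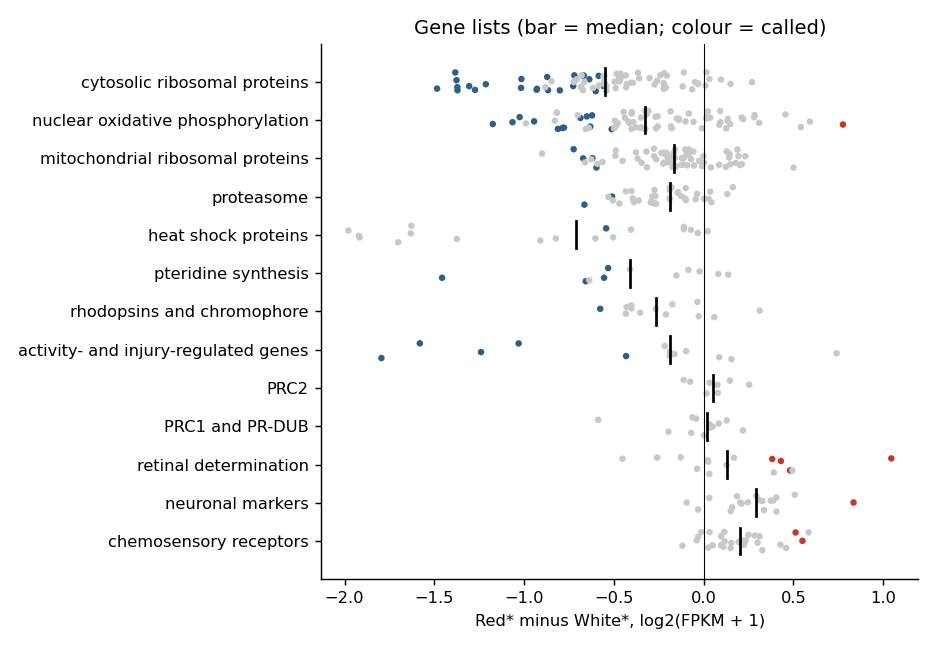
Differences between Red* and White* (x axis, log2(FPKM + 1)) of the members of 13 gene lists; each point is 1 gene, red or blue where called higher or lower and grey otherwise, and the black bar is the list's median. Cytosolic ribosomal proteins (median -0.55) and heat shock genes (-0.71) lie to the left, while neuronal markers (0.29) lie to the right.

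By position, genes of chromosome 4, a small chromosome rich in heterochromatin, were mostly higher in Red*. Of 101 members on it 9 (8.91%) were called higher and 0 lower, against 0.845% higher and 3.02% lower over all genes tested. A difference above 0 was found in 96 of them, against 5429 of all 10777 members, and their median was 0.25. Of the 9 calls, 0 remained without Red* replicate 1 or without either White* library, and the 4 libraries alone gave 1 call. Kif3C, a kinesin, was at 23.1 and 22.9 FPKM in Red*, 12.7 and 13.5 in White*, and 11.9 and 10.7 in Fab2L, so here Red* stands apart. Sox102F, a transcription factor, was at 34.0 and 33.1 FPKM in Red* and 23.7 and 23.4 in White*. In 4 groups of protein-coding genes from the shortest to the longest, the median differences were -0.03, -0.06, -0.03 and 0.06. On chromosome 4 the medians of the 4 length groups ran from 0.08 to 0.28, all above 0. On the X, 86 of 1714 members were lower and 6 higher, so 5.37% were called against 3.99% of all members. The median was -0.07 against 0.00 over all members. With the 20 most abundant RNAs removed it was 0.01 against 0.09, with 53 lower and 8 higher. Without Red* replicate 1 or either White* library 3 members on the X were called lower.

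Of 17 members on the Y chromosome 4 (23.5%) were called higher, against 0.845% of all genes tested, and 16 had a difference above 0 (median 0.75). None of the 4 was called without Red* replicate 1, without either White* library, with the 4 libraries alone or with a filter at FPKM 5. CG45764 was at 4.57 and 3.11 FPKM in Red* and 1.16 and 1.55 in White*, and the Fab2L mean was 4.16, near Red*. Several of these genes are near-identical copies that can share reads, so their values are uncertain and not independent of each other. FDY, also on the Y, was at 4.66 and 6.16 FPKM in Red* and 6.46 and 6.51 in White* and was not called.

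**Figure D4:**
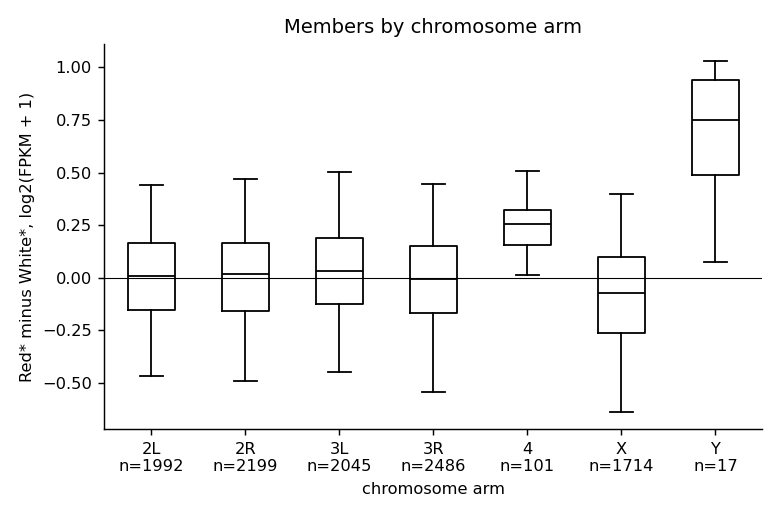
Differences between Red* and White* (y axis, log2(FPKM + 1)) of members by chromosome arm; the box spans the quartiles, the line is the median and the whiskers reach the 5th and 95th percentiles. The boxes of chromosome 4 (median 0.25) and Y (0.75) lie above those of the other arms.

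Sequence variants particular to each line were deposited as well. In the tables named for each line, White* had 2379 line-specific single-base variants and Red* had 168. Within 1000 bp of a White* variant lay 1.92% of members with a position, 3.23% of the higher and 2.74% of the lower ones. White* variants were crowded into 6 stretches of 1 Mb on arm 3R, which held 2394 of its 2425 variants of all kinds. This division was chosen after the data were seen. Of 500 members in those stretches 6.4% were called, 7 higher and 25 lower, against 3.87% of all genes tested. In the 5 such stretches of Red* variants 4.06% of 493 members were called. Within 1000 bp of a Red* variant lay 0.919% of members, 1.08% of the higher and 0.304% of the lower ones, the last being 1 gene of 329. CG33346 lies in the White* stretches, as do Nepl19 and Nepl20, neighbouring neprilysin-like genes that were both higher in Red*. The part of these variants in the differences was not tested.

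The unselected Fab2L flies are given as side-by-side values, since the comparisons share libraries. Of the 336 lower genes, the Fab2L mean lay between the lines for 267 and was nearer to White* for 293. For the 94 higher genes these numbers were 70 and 59. These genes were chosen for a wide gap between Red* and White*, which by itself makes a Fab2L mean between the lines likely. No such count was made for the other members. Among all genes tested, 2.25% were called between Red* and Fab2L and 0.117% between White* and Fab2L. The Fab2L libraries held 13.49 and 14.96 M reads in genes, near White* (16.05 and 13.8 M) and below Red* (25.2 and 36.6 M). Nearness of Fab2L to White* therefore runs together with depth, and the part of depth in these numbers was not tested.

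Unfertilized eggs of the same lines gave a measurement that the head calls did not use. Of the 336 genes lower in Red* heads, 221 were measured in eggs, where 157 (71.0%) were higher in Red* and 12 (5.43%) lower, against 21.5% and 22.7% of all 6682 egg genes. RpL8, at a log2 difference of -1.48 in heads, had 1.25 in eggs (adjusted p = 0.000887 by limma), and RpL22 had -1.38 and 1.78. Of the 94 genes higher in heads, 20 were measured in eggs, where 6 were higher and 5 lower. The difference itself was tested with a limma interaction over the 16 libraries, which called 214 of the 221 for a lower change in heads, against 22.4% of 6400 genes, and 15 of the 20 for a higher one, against 14.9%; the head libraries that made the calls enter it, so the choice of genes raises these counts.

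**Figure D5:**
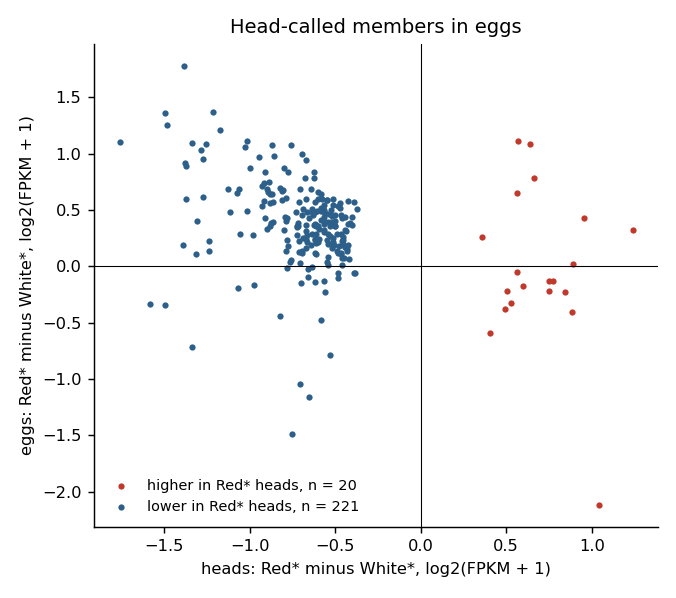
Difference between Red* and White* in heads (x axis) and in unfertilized eggs (y axis), both log2(FPKM + 1); each point is 1 gene called in heads and measured in eggs. Of the 221 genes lower in Red* heads, 157 were called higher in Red* eggs.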

How the data were processed

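The authors deposited FPKM values per gene for each long RNA library; per the submitters' processing notes STAR 2.5, DESeq2 and the dm6 build were used, with no role given. Members, gene lists and tests were chosen with earlier results of these data known. Head genes that passed 1 FPKM in 2 or more of the 8 libraries were fitted with limma 3.58.1 (R 4.3.3) on log2(FPKM + 1), and eggs likewise. The deposited FPKM were whole multiples of 1 read for 99.98% of 194923 values (tolerance 0.001), which gave whole reads for edgeR 4.0.16 and DESeq2 1.42.0 as alternatives. The authors deposited hairpin read counts for small RNA, line-specific variants with a quality score, and indels with an allele fraction; only variant positions and the hairpin counts of called miRNA genes were used. Named genes were w, the 15 largest and 15 most abundant called genes in each direction and called list members; genes of tRNA, miRNA and snoRNA were counted but not named. Other genes were named after their values were seen, among them Stat92E, FDY, DptA, Hsp70Ba, Yp3, the 16 genes kept without any library, the Y-linked and chromosome 4 genes, and the CCT, annexin, pentose phosphate and JAK/STAT lists. After values were seen, symbols that matched another gene by letter case alone were dropped from the yolk and testis lists, which left 4 and 3 members in place of 5 and 4. The histone list as written also matches HisRS, a tRNA synthetase; with it the list has 2 lower genes of 99. Replicate libraries differed beyond sampling noise (chi-square per degree of freedom 47.4 in Red* and 12.3 in White*). Positions follow Release 6 of the genome. 1 gene is not reported here.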

Additional observations from a re-analysis of the deposited data

Results flagged for a closer look

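The change between Red* and White* differed between heads and unfertilized eggs for many head-called genes. In a limma interaction over the 16 libraries, added after the data were seen, 214 of the 221 genes lower in Red* heads and measured in eggs were called for a lower difference in heads than in eggs, against 22.4% of all 6400 genes tested in both tissues. Of the 20 genes higher in Red* heads, 15 were called for a higher difference in heads, against 14.9%. The head libraries that made the calls also enter this test, so these counts are raised by the choice of genes. The labels' extraction text names heads for the egg samples too.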

How the results depend on the processing

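Direction held for w and for the 123 other named genes in every alternative that gave a value, and w was called in all of them. Apart from w, these genes were named because they were called in this contrast. The alternatives reuse its libraries, so a shared direction was likely from the start. Calls held less well. Of these 124 genes, 46 stayed called with no filter on low values, 48 with the 4 libraries alone and 81 with the replicate block. With edgeR 122 of 124 did, and with DESeq2 118 of 123. The counts of higher and lower genes also varied. They were 27 and 120 with no filter on low values, 42 and 114 with the 4 libraries alone, 154 and 204 with the 20 most abundant RNAs removed, and 48 and 202 with the replicate block. DESeq2 on whole reads gave 218 and 660, and edgeR gave 518 lower. Leaving out 1 library gave 6 to 120 higher and 16 to 457 lower genes, with the low ends without Red* replicate 1 or a White* replicate. The cause of these shifts was not tested. With an egg filter at FPKM 5, 3 of 10 genes higher in heads were higher in eggs in place of 6 of 20, the same share of 30%. The number lower in eggs was 4 of 10 (40%) in place of 5 of 20 (25%), and fewer genes were tested. The replicate numbers are not shown to pair samples: deviations of same-numbered Red* and White* libraries correlated at 0.23, over 2 numbers only. With 2 libraries a line, the spread is borrowed from all 8 head libraries, and depth is confounded with line.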

Other observations

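Small RNA libraries of heads gave an outside reading for 1 of the miRNA genes called higher in long RNA: its hairpin reads stood at 15.2 and 15.7 CPM (counts scaled to library size) in Red* and at 15.5 and 14.9 in White*, so the libraries overlapped.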
